A study of Mus musculus with 8 samples.

Results

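The 271 H3K9ac regions described here lie at the ends of annotated transcripts, out of 11251 regions in all. They were chosen by annotation alone: 238 regions carry the label TTS and 33 the label 3' UTR. TTS here stands for transcription termination site, the annotated end of a transcript. All 271 named transcripts were found in RefSeq, and they belong to 269 distinct genes. The centre of 236 of the 238 TTS regions lay between 100 bp before and 1000 bp after the named end, and the centre of all 33 3' UTR regions lay before it. The named end itself fell inside 148 regions (54.6%).

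The mark profiled was H3K9ac, acetylation of histone H3 at lysine 9. Chromatin of epithelial cells isolated from terminal ileum was immunoprecipitated and sequenced, and all mice were wild type C57Bl/6. One group received butyrate at 150 mM for 7 days (3 libraries) and the other received vehicle (3 libraries). There were 2 further input libraries, not analysed here. Whether every library stands for its own mouse is not stated in the labels. The p-values below rest on the variation among libraries, which may include technical variation.

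H3K9ac is a mark of active chromatin that is densest around the starts of transcribed genes and thins out along the gene body. Its presence at a gene's end is therefore less usual. A gene's end can lie close to another start, because mouse genes often follow one another on the same strand, because some genes are very short, and because some small RNAs are cut from introns close to the start of their host gene. Butyrate comes from bacterial fermentation in the gut. Intestinal epithelial cells take it up and burn it as fuel, and it inhibits histone deacetylases. Ends of most coding genes carry a short polyadenylation signal, whereas the replication-dependent histone genes end in a conserved stem-loop in place of a poly(A) tail.

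The ends that name the regions fall into groups by sequence. Of the 271 ends, 196 belong to protein-coding genes, 44 to microRNAs, 15 to long non-coding RNAs, 14 to small nucleolar RNAs, 1 to a small nuclear RNA and 1 to a transcribed pseudogene. The last 30 bases of 3 transcripts after which another coding gene starts are given first, from the RefSeq annotation of GRCm38.p6 on the transcript strand, with the polyadenylation hexamer AATAAA in capitals. They are ends that name some of the strongest regions of this layout.
Tapbp: tcgtgagctAATAAAgtctttccgagtttc
Lamb2: agagctttcAATAAAcctgtgtgaacctcc
Tpp1: aaattaAATAAAtgactgtttaaaaaaaaa
These lie at chr17:33929261-33929290 on the plus strand for Tapbp, at chr9:108490501-108490530 on the plus strand for Lamb2 and at chr7:105744811-105744840 on the minus strand for Tpp1. The next coding start lay 292 bp beyond the last base of Tapbp, 310 bp beyond Lamb2 and 450 bp beyond Tpp1.

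Cldn3 and Mcl1 are genes so short that their own start lies in the region, and their ends carry the same hexamer.
Cldn3: ttcAATAAAagtctttcgttttttgcagtc
Mcl1: gaagagaaAATAAAcctttttccccccaaa
The Cldn3 end lies at chr5:134987447-134987476 and the Mcl1 end at chr3:95663150-95663179, both on the plus strand. The histone ends have another form, shown for 3 genes with the stem-loop in capitals.
Hist1h1c: caatccaaaaGGCTCTTTTCAGAGCCacca
Hist1h4d: aaaaaccaaaGGCCCTTTTCAGGGCCacta
Hist1h2bh: taacccaaaGGCTCTTTTCAGAGCCactca
All 3 lie on chromosome 13, at chr13:23739502-23739531 on the plus strand, chr13:23581940-23581969 on the plus strand and chr13:23542923-23542952 on the minus strand. The 2 arms of the stem pair with each other in the RNA.

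AATAAA or its variant ATTAAA, searched on the transcript strand only, occurred in the last 30 bases of 117 of 178 coding ends other than replication-dependent histones (65.7%). The same search found 1 of them in 14370 of 22773 coding transcript ends in RefSeq as a whole (63.1%). AATAAA alone was present in 56.2% of the 178 ends and in 50.9% of all ends. The replication-dependent histone stem-loop was present in 18 of 18 histone ends and in 0 of the other 178, against 65 of 22773 coding ends overall (0.285%). A match is a description of the letters in this window only.

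Among the microRNA ends, 42 of 44 genes matched the RefSeq table, with 62 mature names, and no seed was shared by 2 of them. The mature sequences of 4 of the microRNAs whose regions are named in the comparison of treatments are given with the seed, bases 2 to 8, in capitals.
mmu-miR-8092: gCCAUCUGggacucgcaggca
mmu-miR-3968: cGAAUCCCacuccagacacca
mmu-miR-3075-3p: aUCCUUGGccuuccuaggugu
mmu-miR-5119: cAUCUCAUccuggggcugg
They are encoded at chr19:40894754-40894774 (plus strand), chr11:115447969-115447989 (minus), chr14:25534491-25534511 (plus) and chr11:98262638-98262656 (plus). The region of Mir8092 also holds the start of the coding gene Zfp518a. The regions of the other 3 hold no coding start, and the nearest lies 6875 bp away for Mir3968, 75287 bp for Mir3075 and 59257 bp for Mir5119.

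The deposited values are RPKM, reads normalised to region length in kilobases and to effective library size. Reads in regions numbered 1255251 to 1596958 per butyrate library and 1261630 to 1828591 per vehicle library, and gene-end regions took 2.10% to 2.12% of them in each of the 6 libraries. The median gene-end region had 68 to 77 reads in butyrate libraries and 60 to 93 in vehicle libraries, against 82 to 104 and 82 to 120 over all regions. The deposited scaling differed from one that sets the median region equal by factors of 0.998 to 1.001, so a change shared by most regions would not be seen. Of 11 epithelial marker genes, such as Epcam and Vil1, 11 had a region, at 3.07 to 7.83 RPKM. Of 5 ileal enterocyte genes, 4 had one and Slc10a2, the ileal bile acid transporter, had none. Of 11 markers of immune, endothelial, stromal and muscle cells, only Ptprc had a region, at 0.893 RPKM. These sums over many cells cannot tell fewer acetylated cells apart from less acetylation per cell.

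Most gene-end regions also held the start of a transcript. An annotated GENCODE start lay inside 179 of the 271 (66.1%), and the start of a protein-coding gene inside 166 (61.3%). Within 500 bp of the region on either side, 230 (84.9%) had a start. In all other regions the share with a start inside was 74.7%, and among the 3110 regions annotated as promoter-TSS it was 83.2%. By the start they held, the gene-end regions were divided into those with the start of another coding gene (94), those with the start of the gene that ends there (29), those at the end of a small RNA (59), those with another kind of start (20) and those with none (69). In the 20 the start belonged to a non-coding transcript or, in 3 regions, to another transcript of the gene that ends there, and in 15 it lay in a coding gene. Small RNAs were set apart because their own start always lies close to their end.

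**Figure D1:**
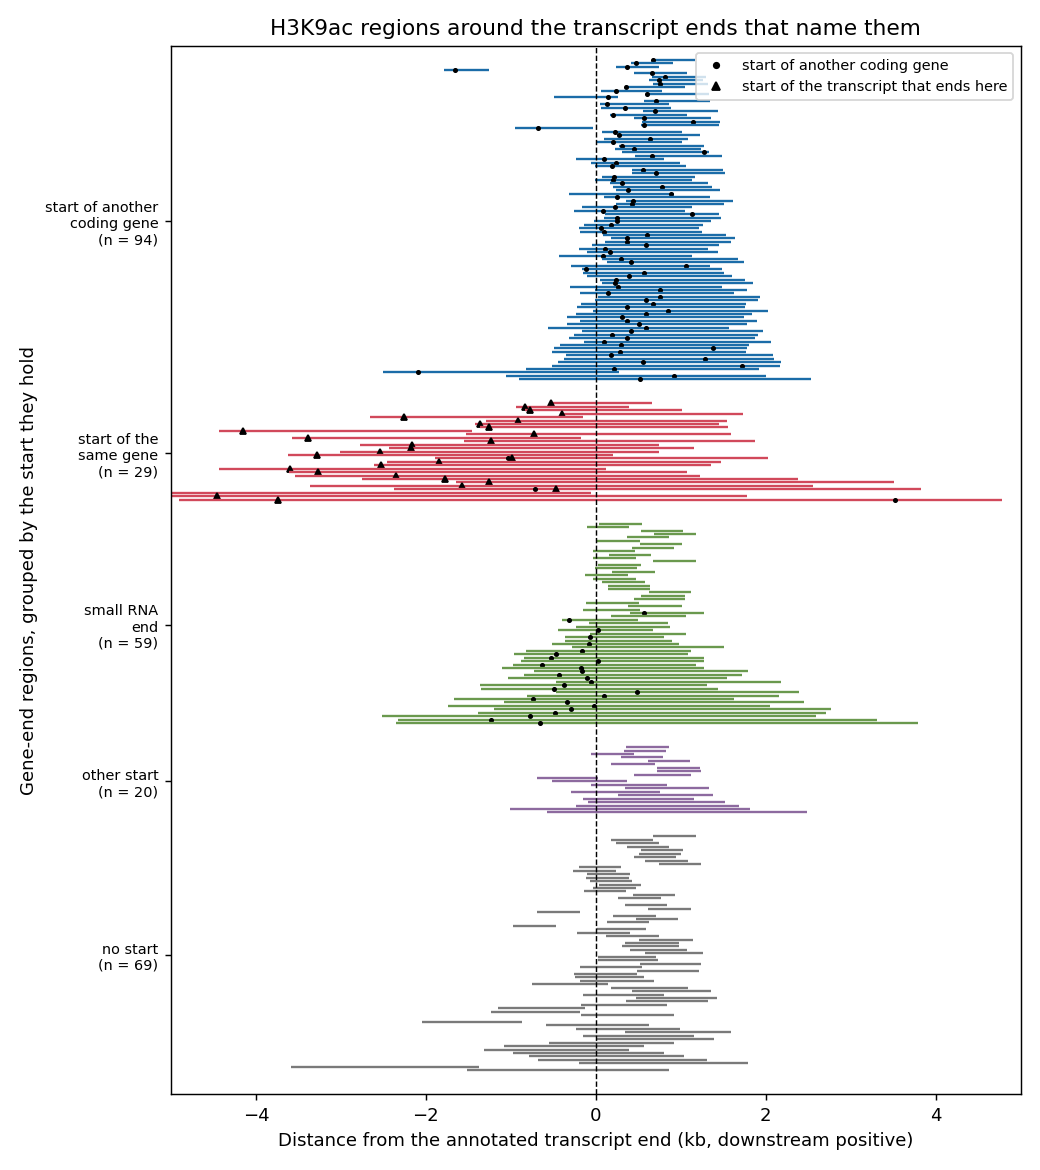
Each line is the span of 1 gene-end region, placed by its distance from the transcript end that names it (horizontal axis, kb, downstream positive, dashed line at the end) and grouped by the start it holds. Black dots mark the start of another coding gene and triangles the start of the same transcript; 4 regions reach beyond the 5 kb plotted. Most regions with another gene's start lie downstream of the end, around that start, while the regions of short genes extend back over the whole gene.

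In the 94 regions with the start of another coding gene, 80 of those starts were on the same strand as the gene that ended and 14 on the opposite strand. For the same-strand pairs the median distance from the end of one gene to the start of the next was 310.5 bp (quartiles 200 and 553 bp). The next start lay within 1 kb downstream in 76 of the 80, and the 2 transcripts overlapped in the other 4. The genes that ended there spanned a median of 9820 bp, so their own start was usually far from the region. In the 29 regions that held the start of the gene that ended there, the transcript spanned 402 to 5813 bp with a median of 1848 bp. These regions were long, with a median of 3766 bp against 1133 bp for all gene-end regions and 1417 bp for all regions.

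The level of gene-end regions differed with the start they held. Regions with the start of another coding gene had a median of 3.76 RPKM (2.15 to 6.64), those with the same gene's start 3.35 RPKM, those at small RNA ends 1.91 RPKM, those with another kind of start 2.30 RPKM and those with none 1.44 RPKM. The median over all gene-end regions was 2.97 RPKM (0.672 to 9.59), and over promoter-TSS regions 3.11 RPKM. Base composition was ordered in part in the same way: the median ratio of observed to expected CpG was 0.59 with another coding gene's start, 0.54 with the same gene's start, 0.42 at small RNA ends, 0.43 with another kind of start and 0.33 with no start, against 0.63 in promoter-TSS regions. Of the 69 regions without a start, 27 had the minimum length of 500 bp, against 3 of the 94 with another coding gene's start.

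**Figure D2:**
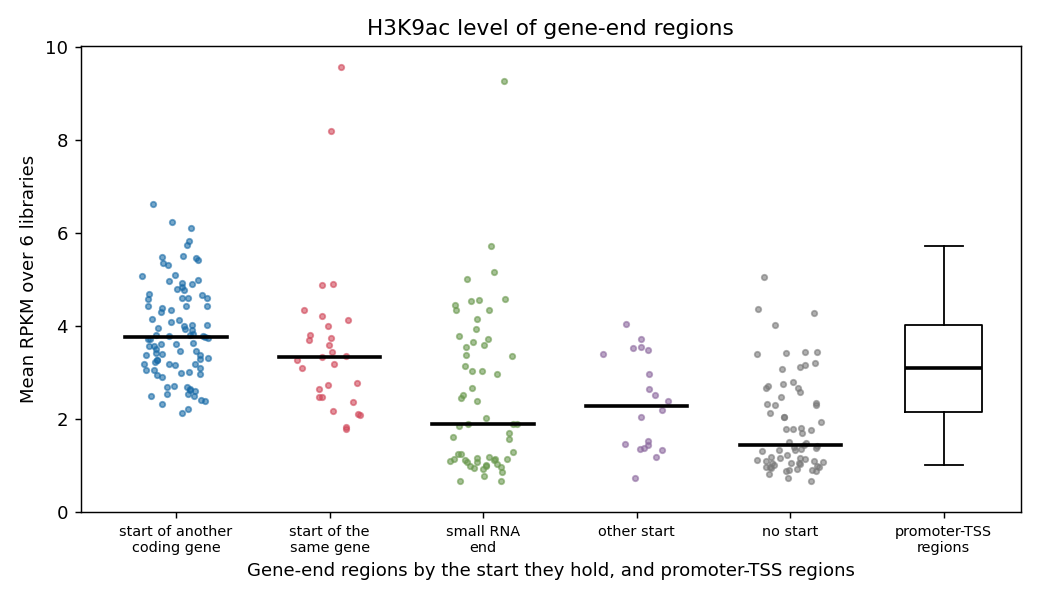
Points are single gene-end regions at their mean RPKM over the 6 libraries (vertical axis, linear from 0), by the start they hold; black bars are medians. The box shows the median and quartiles of the 3110 promoter-TSS regions with whiskers at the 5th and 95th percentiles, and the regions with another coding gene's start, all at 2.15 RPKM or more, lie mostly above its median of 3.11.

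The comparison with promoters held in every library. The mean log2(RPKM + 1) of the 271 regions lay below that of promoter-TSS regions by a mean of -0.11 in butyrate libraries and -0.11 in vehicle libraries. The difference was negative in 6 of 6 libraries (exact sign-flip permutation test over libraries, two-sided, p = 0.03125, the smallest that 6 libraries allow). By the same test the regions with another coding gene's start lay above promoters, by 0.28 in butyrate and 0.29 in vehicle libraries, and so did those with the same gene's start, by 0.15 and 0.17. Regions at small RNA ends (-0.33 and -0.31), with another kind of start (-0.29 and -0.32) and with none (-0.53 and -0.53) lay below in 6 of 6 libraries. Among regions that held a coding gene's start, the 166 gene-end regions exceeded the 2499 promoter-TSS regions by 0.05 ± 0.006 (SD over the 6 libraries), with all 6 libraries higher. In the exact test each of these 7 comparisons had p = 0.03125, which Benjamini-Hochberg adjustment over the 7 left at 0.03125. The 6 libraries share the same regions, so the test covers the spread between libraries and not the choice of regions.

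**Figure D3:**
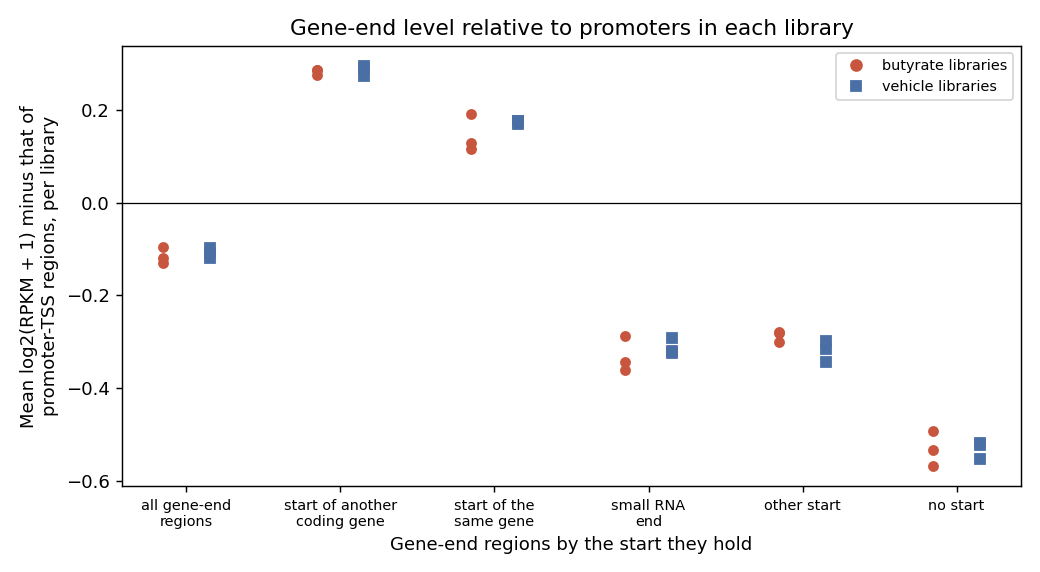
Each point is 1 library, butyrate (circles) left of vehicle (squares); the vertical axis is the mean log2(RPKM + 1) of a group of gene-end regions minus that of promoter-TSS regions in the same library. The regions with the start of another coding gene and those with the start of the same gene lie above 0 in all 6 libraries and the other groups below, with no group in which butyrate and vehicle libraries are far apart.

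The tandem pairs named by their high level show regions named for one gene's end that hold its neighbour's start. The end itself can lie outside, as for Tapbp at chr17:33929290, where the region begins at 33929366. The region named for the Tapbp end, at the start of Rgl2, an exchange factor for Ral GTPases, had overlapping values. These were 5.34, 5.84 and 6.76 RPKM in butyrate libraries and 6.56, 6.21 and 6.73 RPKM in vehicle libraries. Tapbp itself encodes tapasin, which loads peptides onto MHC class I. The Ppp1r27 end, at the start of Mcrip1, had 6.21, 5.21 and 6.77 RPKM in butyrate libraries and 5.37, 5.72 and 5.79 RPKM in vehicle libraries, again with overlap. The Hdac10 region, the one region of the list of butyrate transport and histone deacetylase genes, held the start of Tubgcp6, a γ-tubulin complex gene. It had 3.65, 3.76 and 3.44 RPKM in butyrate libraries and 3.56, 3.16 and 3.57 RPKM in vehicle libraries, with a log2 fold change of 0.06 ± 0.10 (SE).

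Whether such a region was stronger or weaker than the start of the gene that ended there could be seen in 88 cases, where that start lay in another region. The gene's start region was the stronger of the pair in 55 of the 88, with medians of 3.07 RPKM at the end and 3.52 RPKM at the start. Another coding gene's start also lay in the gene-end region in 48 of these cases. There the ending gene's own start region was the stronger in 20, with medians of 3.76 RPKM (end) and 3.29 RPKM (start). RPKM is per length, an average over the whole region. How far the different lengths of the paired regions bear on this ranking was not tested.

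Short genes gave 2 of the 3 strongest regions. The Cldn3 region, over a claudin gene of tight junctions whose transcript spans 1263 bp, covered 5157 bp at chr5:134985827-134990983. It had 8.83, 9.96 and 9.001 RPKM in butyrate libraries and 10.5, 9.79 and 9.40 RPKM in vehicle libraries, the highest mean of all gene-end regions at 9.59 RPKM. The groups overlapped, with a log2 fold change of -0.09 ± 0.07 (SE). Ier5, an immediate early gene, had 8.001, 7.94 and 8.62 RPKM in butyrate libraries and 9.22, 7.91 and 7.59 RPKM in vehicle libraries. One vehicle library was higher than the other 5, and the groups overlapped. The longest gene-end regions were those of Rsrp1, which also holds the start of Syf2, a splicing factor gene, with 9698 bp, Mcl1, an anti-apoptotic gene of the Bcl2 family, with 7436 bp, and Btg1, an antiproliferative gene, with 6668 bp. Mcl1 had 4.59, 4.69 and 5.05 RPKM in butyrate libraries and 5.01, 4.94 and 5.15 RPKM in vehicle libraries. Btg1 had 3.65, 3.14 and 4.15 RPKM in butyrate libraries and 3.28, 3.49 and 3.92 RPKM in vehicle libraries. The 2 regions of the immediate early list, Ier5 and Btg1, had log2 fold changes of 0.00 and 0.02.

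The 18 regions at replication-dependent histone ends were weaker than most, with a median of 1.78 RPKM (0.966 to 3.35). These genes code for the core and linker histones of newly made chromatin and are short and clustered. The start lay within the region in 5 of the 18, as for Hist1h1c, which had 3.40, 3.32 and 3.81 RPKM in butyrate libraries and 3.31, 3.14 and 3.11 RPKM in vehicle libraries. All 3 butyrate values lay above all 3 vehicle values, but the log2 fold change was 0.11 ± 0.10 (SE), unadjusted p = 0.31 by limma. In 12 of the 18 no start lay in the region, and the nearest coding start was 127 to 595 bp away. H3f3b, a histone gene of the replication-independent kind with introns, had 3.66, 3.54 and 4.54 RPKM in butyrate libraries and 4.37, 4.37 and 4.39 RPKM in vehicle libraries. Of the 25 genes in the histone list, matched by the ending or the nearest gene, 13 regions were found and 12 tested, with 7 higher, 5 lower, 0 past the adjusted threshold and a median log2 fold change of 0.03, against 0.00 over all regions tested. Copies of histone genes are nearly identical, and how reads that fit several copies were counted is not given in the sources used here, so single histone values are uncertain.

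Regions at small RNA ends were of 2 kinds. In 27 of the 59 a protein-coding transcript started in the region. These had a median length of 2580 bp, 3.72 RPKM and a CpG ratio of 0.70. In the other 32 none did, though in 2 of them a non-coding transcript of a coding gene started. These 32 had a median length of 500 bp, 1.14 RPKM and a CpG ratio of 0.14, with a median of 12.9 reads per library, and the nearest coding start was a median of 4541 bp away. The strongest of the first kind was the region of Mir1893, which holds the start of Epc1, a subunit of a histone acetyltransferase complex. It had 10.003, 9.63 and 9.60 RPKM in butyrate libraries and 9.36, 8.01 and 9.10 RPKM in vehicle libraries. All 3 butyrate values were above the vehicle values, with a log2 fold change of 0.13 ± 0.07 (SE) and an unadjusted p of 0.084 by limma. Another was Snora7a, a small nucleolar RNA whose region holds the start of the ribosomal protein gene Rpl32 (4.35 RPKM), named after its value was seen.

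Of the 69 regions without an annotated start, 49 lay within 1 kb of the start of a coding gene, with a median distance of 646 bp, and 10 lay over 5 kb away. Of the 4 highest, 3 stood next to a start just outside the region: 17 bp for the Phf13 end at 5.06 RPKM, 61 bp for the Sec24c end at 4.04 RPKM and 174 bp for the Rnf186 end at 4.37 RPKM. Phf13 and Sec24c were named after their values were seen. Rnf186, which encodes a ubiquitin ligase of the intestinal epithelium, had 4.23, 3.95 and 3.84 RPKM in butyrate libraries and 4.99, 5.19 and 4.01 RPKM in vehicle libraries, with a log2 fold change of -0.19 ± 0.10 (SE). Far from a coding start, at 5191 bp, lay the Gpr108 end next to the complement gene C3, with 4.53, 3.64 and 4.28 RPKM in butyrate libraries and 4.64, 4.41 and 4.24 RPKM in vehicle libraries. It was the strongest of the 28 gene-end regions over 5 kb from a coding start, whose median was 1.14 RPKM with 14.7 reads per library.

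The other regions with many reads and no start were those at Cldn4, Aff4, Tmem88b, Pop7 and Agbl5. Cldn4, another claudin gene, had 2.98, 3.24 and 2.73 RPKM in butyrate libraries and 3.20, 3.55 and 3.01 RPKM in vehicle libraries. With Cldn3 it made up the 2 gene-end regions of the junction list, both with a lower mean in butyrate libraries and neither past the test. The Aff4 end lies near Leap2, a peptide hormone gene of liver and small intestine, and had 2.55, 1.92 and 2.56 RPKM in butyrate libraries and 2.86, 2.38 and 3.32 RPKM in vehicle libraries, with overlap. Log2 fold changes were -0.10 at Tmem88b, -0.01 at Pop7 and 0.09 at Agbl5, each smaller than its SE of 0.13, 0.13 and 0.12. Hist1h1d had a start in the region by RefSeq and none by GENCODE, and its log2 fold change was 0.02 ± 0.11 (SE). No gene-end region matched the lists of lineage transcription factors, absorption genes or fatty acid oxidation genes.

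The comparison of butyrate with vehicle asked whether acetylation at these regions differed after the treatment. No gene-end region passed the test: 0 of the 250 with a mean of at least 1 RPKM were called by limma on log2(RPKM + 1) with Benjamini-Hochberg adjustment over all regions at 0.05, beside 0 of 10529 regions (0%). The smallest adjusted p among them was 0.486. Without adjustment, 5 were higher at p under 0.05 (2% of 250, against 3.35% of all regions tested) and 13 lower (5.2%, against 3.91%). Butyrate and vehicle libraries did not overlap in 9 regions that were higher (3.6%, against 6.11%) and in 19 that were lower (7.6%, against 6.85%). The median log2 fold change was 0.01, with 127 higher and 123 lower, beside 0.00 over all regions tested. The mean log2(RPKM + 1) of the 271 regions was 1.85 ± 0.02 in butyrate libraries and 1.85 ± 0.01 in vehicle libraries (SD, n = 3 each). The exact permutation test, two-sided, gave p = 0.9, with 0.1 the smallest that 3 against 3 allow. Under the deposited scaling, a change shared by most regions would not be seen in this mean. The other fits of these values also called 0 gene-end regions: voom on the reads recovered from the RPKM called 0 of 271, beside 16 of 11251 regions (0.142%), with 25 gene-end regions (9.23%) at an unadjusted p under 0.05, beside 9.49% of all regions.

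How far these data could show a change depended on the reads. The median half-width of the 95% interval of the log2 fold change was 0.27 over the 250 regions tested. It was 0.23 in the 114 regions with at least 100 mean reads, 0.31 in the 89 with 25 to under 100 and 0.43 among those with fewer than 25, of which there were 68 and 47 passed the filter. These intervals are for single regions and are not adjusted for the 10529 regions tested. A value beyond such a half-width could still fail the adjusted threshold, as did the 1700016A09Rik end at -0.54 (limma, adjusted p = 0.486). Since the scale is log2(RPKM + 1), the fold change of weak regions is understated and their intervals are narrowed.

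**Figure D4:**
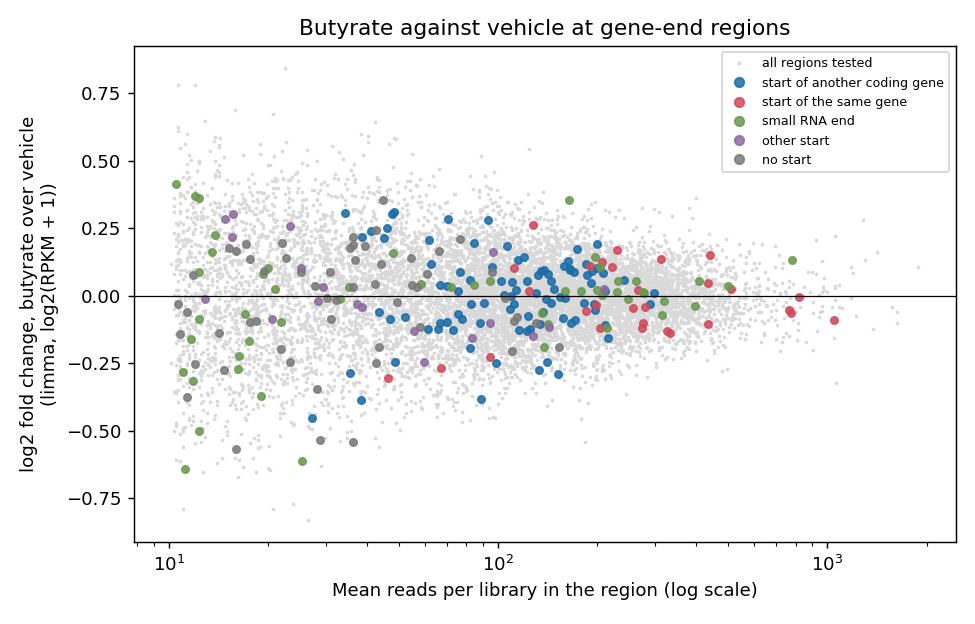
Log2 fold change of butyrate over vehicle (vertical axis, limma, log2(RPKM + 1)) against mean reads per library in the region (horizontal axis, log scale). Coloured points are the 250 gene-end regions tested, by the start they hold, and grey points all 10529; the gene-end points scatter around 0 and widen toward few reads, as the grey ones do, and 0 passed the adjusted threshold.

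By the start they held, the median log2 fold change was 0.01 in 94 regions with another coding gene's start (49 higher, 45 lower), -0.04 in 29 with the same gene's start (12 and 17), 0.02 in 52 at small RNA ends (30 and 22), -0.02 in 19 with another kind of start (8 and 11) and 0.01 in 56 with none (28 and 28). In the 27 small RNA regions with a coding start, 20 were higher and 7 lower, with a median of 0.02. In the 25 tested without one, 10 were higher and 15 lower, with a median of -0.07. Over all 10529 regions tested, 5268 were higher and 5261 lower. Promoter-TSS regions with a coding gene start had 1284 higher and 1193 lower. The 30 tested regions of the 3' UTR label had a median of -0.05 and the 220 of the TTS label one of 0.01.

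The 8 lower and the 8 higher regions of smallest p are given here with their values, none past the adjusted threshold. The lowest p belonged to the end of 1700016A09Rik, a long non-coding RNA gene near Gse1, at chr8:120536025-120536524. It had 2.43, 2.79 and 2.49 RPKM in butyrate libraries and 4.57, 3.36 and 4.74 RPKM in vehicle libraries. All butyrate values lay below all vehicle values, with 25 to 28 reads in butyrate and 30 to 59 in vehicle libraries, and the log2 fold change was -0.54 ± 0.12 (SE; limma, adjusted p = 0.486). The promoter-TSS region of Gse1, at chr8:120487147-120489531, had a log2 fold change of -0.14 ± 0.13 (SE), and the one next to this end, at chr8:120535410-120535909, -0.14 ± 0.21 (SE).

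Phf1, which encodes a Polycomb accessory protein, appeared at both ends. The region beyond its end, at chr17:26938414-26938913 with no start in it, had 1.53, 2.57 and 2.04 RPKM in butyrate libraries and 3.80, 3.14 and 3.19 RPKM in vehicle libraries, a log2 fold change of -0.53 ± 0.14 (SE; limma, adjusted p = 0.492). The region at its start, named for the end of Kifc5b, a kinesin gene, had 5.002, 5.65 and 5.37 RPKM in butyrate libraries and 4.34, 3.54 and 4.84 RPKM in vehicle libraries, a log2 fold change of 0.28 ± 0.10 (SE; adjusted p = 0.596). The libraries of the 2 treatments did not overlap at either. Without 1 vehicle library (S2) the value at the Phf1 start was 0.18 (limma, unadjusted p = 0.094). The promoter of Cuta, the next gene after the Phf1 end, was at 0.05 ± 0.16 (SE). The last 30 bases of the Kifc5b and Phf1 transcripts carry AATAAA.
Kifc5b: ggtattgtaAATAAAtactgtaagcacgta
Phf1: ataAATAAAcctagtaggcatgagtcattt
These ends lie at chr17:26932550-26932579 and chr17:26937879-26937908, on the plus strand, and the Phf1 start lies 570 bp beyond the Kifc5b end.

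Tpp1, a lysosomal peptidase gene, was another of the 5 genes whose end names one gene-end region and whose start lies in another. The region named for the Tpp1 end holds the start of Taf10, a subunit of the general transcription factor TFIID. It had 5.37, 5.39 and 5.47 RPKM in butyrate libraries and 8.17, 6.29 and 5.96 RPKM in vehicle libraries. One vehicle library stood well above the other 5, and the log2 fold change was -0.27 ± 0.10 (SE; limma, unadjusted p = 0.016). Without that library it was -0.15 (unadjusted p = 0.12). The Tpp1 start lay in the region named for the Dchs1 end. That region had 3.26, 4.13 and 3.42 RPKM in butyrate libraries and 2.93, 2.76 and 3.20 RPKM in vehicle libraries. Its log2 fold change was 0.21 ± 0.11 (SE, limma, unadjusted p = 0.075). With starts taken from GENCODE, the remaining such genes were Tapbp (start 0.28 and end -0.11), Dnajc4 (start -0.29 and end -0.03) and Impdh2 (start -0.08 and end 0.12). Their unadjusted p by limma was 0.068 or more. The RefSeq transcript of Tapbp that names the end starts in a different region from the Daxx end. That region had a log2 fold change of -0.13 ± 0.10 (SE; limma, unadjusted p = 0.23).

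Other regions with lower values in butyrate libraries were at tandem pairs and at weak sites. The Tas1r1 end, at the start of Zbtb48, a telomere-binding zinc finger gene, had 2.13, 2.97 and 2.52 RPKM in butyrate libraries and 3.41, 3.67 and 3.70 RPKM in vehicle libraries (log2 fold change -0.38 ± 0.12, SE). The Slc12a9 end, at the start of Trip6, had 1.44, 2.57 and 2.04 RPKM in butyrate libraries and 3.49, 2.69 and 3.10 RPKM in vehicle libraries (-0.45 ± 0.15, SE). The Lamb2 end, a laminin gene followed by Usp19, a deubiquitinase gene, had 5.83, 4.82 and 4.91 RPKM in butyrate libraries and 5.85, 6.53 and 6.55 RPKM in vehicle libraries (-0.24 ± 0.09, SE). In each of these 3 the butyrate values were below all vehicle values, though at the Lamb2 end the highest butyrate value nearly met the lowest vehicle value.

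Of the weak sites, Mir3968 had 1.803, 1.12 and 2.13 RPKM in butyrate libraries and 2.40, 2.91 and 3.97 RPKM in vehicle libraries (-0.61 ± 0.17, SE). Mir3075 had 0.631, 0.782 and 0.444 RPKM in butyrate libraries and 1.01, 1.79 and 1.84 RPKM in vehicle libraries (-0.64 ± 0.21, SE), from 11.2 mean reads. Alppl2, an alkaline phosphatase gene, had 0.671, 0.680 and 0.541 RPKM in butyrate libraries and 1.36, 1.82 and 1.11 RPKM in vehicle libraries (-0.57 ± 0.20, SE), from 16 mean reads. The groups did not overlap in these 3 regions, and none held the start of a coding gene. Another region whose nearest gene was Alppl2, intergenic and 500 bp long, averaged 0.760 ± 0.114 RPKM in butyrate libraries and 1.49 ± 0.556 RPKM in vehicle libraries (SD, n = 3 each).

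Among the regions with higher values in butyrate libraries, Mir8092, with the start of Zfp518a, a zinc finger gene, had 5.58, 5.94 and 6.18 RPKM in butyrate libraries and 5.42, 4.05 and 3.82 RPKM in vehicle libraries, with no overlap (0.36 ± 0.11, SE; limma, adjusted p = 0.572). The Phf23 end, at the start of Dvl2, a Wnt signalling gene, had 3.66, 3.72 and 2.84 RPKM in butyrate libraries and 2.94, 2.24 and 2.51 RPKM in vehicle libraries. The Rrs1 end, of a ribosome assembly gene, had 1.99, 2.67 and 2.60 RPKM in butyrate libraries and 1.60, 2.09 and 1.34 RPKM in vehicle libraries. In both regions 1 butyrate library fell within the vehicle range, and their log2 fold changes were 0.30 ± 0.12 and 0.36 ± 0.15 (SE).

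The Wbp2 end, at the start of Unc13d, a gene of granule exocytosis, had 4.36, 3.10 and 4.94 RPKM in butyrate libraries and 2.77, 3.29 and 3.22 RPKM in vehicle libraries. The Daxx end, of a histone chaperone gene, holds a GENCODE start of Tapbp, and its nearest gene by the deposited annotation is Zbtb22. It had 4.01, 3.98 and 3.21 RPKM in butyrate libraries and 2.11, 2.99 and 3.68 RPKM in vehicle libraries. Groups overlapped in both, with log2 fold changes of 0.31 ± 0.13 and 0.28 ± 0.14 (SE). Without 1 butyrate library (S6) the value at the Wbp2 end was 0.20, and without 1 vehicle library (S1) that at the Daxx end was 0.13. The Gstt3 end, of a glutathione transferase gene, holds the start of Ddt and had 3.83, 3.36 and 3.58 RPKM in butyrate libraries and 3.21, 2.67 and 3.07 RPKM in vehicle libraries, with no overlap (0.21 ± 0.11, SE).

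**Figure D5:**
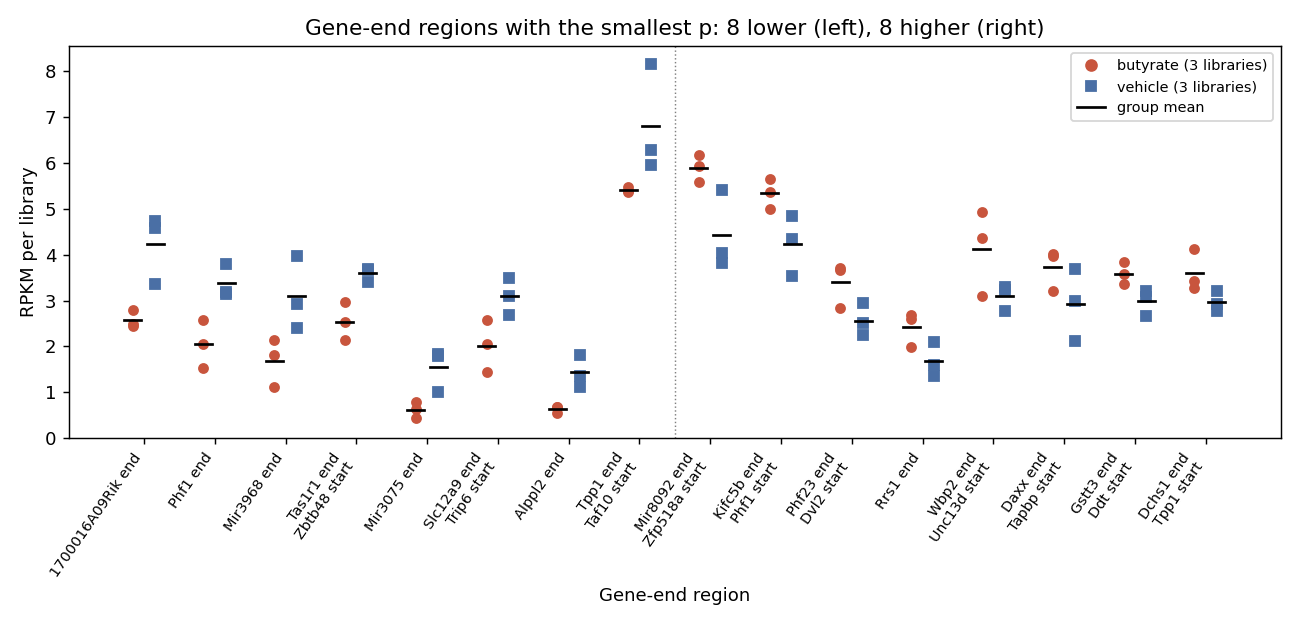
RPKM of each library (vertical axis, linear from 0) in 16 gene-end regions, the 8 lower (left of the dotted line) and the 8 higher (right) with the smallest p in each direction; circles are butyrate and squares vehicle libraries, bars the group means. All 8 lower regions show butyrate libraries below every vehicle library, while several of the higher ones, such as Daxx with 3.21 RPKM in 1 butyrate and 3.68 RPKM in 1 vehicle library, overlap.

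The authors' deposited table called 2 of the 271 gene-end regions at their FDR of 0.1 (0.738%), against 28 of all 11251 regions (0.249%). Both were below 1 RPKM on average, outside the rule for named regions and outside the limma fit, and are named after their values were seen. Mir5119 had 0.915, 1.18 and 0.941 RPKM in butyrate libraries and 0.342, 0.396 and 0.256 RPKM in vehicle libraries, from 23 or 24 reads per butyrate library and 6 to 10 per vehicle library. In the authors' deposited table its log2 fold change is 1.59 with an FDR of 0.0176. The 3' UTR of Slc20a1, a phosphate transporter gene, had 0.631, 0.223 and 0.267 RPKM in butyrate libraries and 1.55, 1.01 and 1.74 RPKM in vehicle libraries, from 2 to 7 and 9 to 20 reads. In the authors' deposited table its log2 fold change is -1.89 with an FDR of 0.0731. The groups did not overlap in either region. In voom on all 11251 regions the adjusted p was 0.097 for Mir5119 and 0.122 for Slc20a1, and the smallest among gene-end regions was 0.079, at Mirlet7g with 7.17 mean reads.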

How the data were processed

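The authors deposited 1 table of 11251 merged regions with a HOMER-style annotation and RPKM per library, and with their own log2 fold change, p-value and FDR, per the file headers. The submitters' processing notes name mm10, STAR, Picard, HOMER and edgeR, with no role. How regions were called and how reads were counted is not given in the sources used here. RPKM steps gave whole reads for 100% of values (tolerance 0.01 reads). Within a group, library pairs differed by more than counting noise (chi-square per degree of freedom 1.93 to 2.09), so none was a copy.

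The planned count model gave way to its planned fallback for RPKM: limma 3.58.1 (R 4.3.3; trend, robust, no covariates) on log2(RPKM + 1), over all 10529 regions with a mean of at least 1 RPKM, with Benjamini-Hochberg adjustment at 0.05. Of the 271 members, 250 passed this filter. The script was tested on simulated data. Columns S1 to S3 are vehicle and S4 to S6 butyrate. Starts came from GENCODE M21, transcript ends and sequences from RefSeq on GRCm38.p6, whose chromosomes contain all regions (0 beyond an end). Exact permutation tests compared library means.

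Regions, gene lists and tests were chosen with earlier results of these data known. Named regions were those with the smallest p (8 each way), the highest mean RPKM (8), the longest (3), up to 3 per gene list by reads (7 lists) and the 8 with most reads and no GENCODE start. Alternatives varied the pseudocount, filter, scaling, test, threshold, member definition and libraries. Of the regions this rule names, 1 is not reported here.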

Additional observations from a re-analysis of the deposited data

How the results depend on the processing

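The count of called gene-end regions stayed at 0 under every alternative run. These were pseudocounts of 0.5 and 2, no filter and a filter of 2 RPKM, both other scalings and voom on all recovered reads. Voom on regions of at least 25 mean reads was added after seeing the data. The others were either annotation alone, regions without a start, leaving out each library, and a threshold of 0.1 in the main fit only. In voom on all regions, Mirlet7g and Mir5119 had an adjusted p under 0.1. At an unadjusted p under 0.05 the alternatives gave 5.24% to 9.46% of the gene-end regions tested, against 6.47% to 9.49% of all regions in the same fits. Voom at 25 reads without single libraries called 0, with smallest adjusted p of 0.16 to 0.40. The median log2 fold change of 0.00686 became -0.0492 with the 3' UTR label alone and -0.00897 without regions that overlap a start, and ran from -0.00365 to 0.00877 without single libraries. The difference in mean log2 level, 0.000952, turned to -0.0103 with the filter of 1 RPKM, to -0.0108 without regions that overlap a start, and ran from -0.00810 to 0.00668 without single libraries. The cause was not tested. The share of regions with a start, 66.1%, was 84.9% with 500 bp added on either side.

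Among 37 named regions, 9 of 510 values changed sign, all in 5 regions when 1 library was left out. Without single libraries, the log2 fold change ran from -0.159 to 0.00893 at Tmem88b, from -0.0535 to 0.104 at Btg1, from -0.0520 to 0.0739 at Hist1h1d, from -0.139 to 0.0653 at Pop7 and from -0.0549 to 0.0704 at Ier5. Without 1 library, other named values also moved by over 1.5 times, those near 0 among them and, for example, to 0.071 at Mir1893 (S2), 0.13 at Dchs1 (S5), -0.12 (S3) and -0.11 (S5) at Aff4, -0.08 (S5) and -0.23 (S6) at H3f3b, and -0.06 (S4) and -0.20 (S6) at Hist1h2bc. No paired analysis was possible because the table's columns carry the numbers S1 to S6 and not the replicate numbers of the labels. With 3 libraries a group and 68 of 271 regions under 25 mean reads, counting error limits what could be seen in the weak regions.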
